A study of Mus musculus with 12 samples.

Results

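The levels of 6 long noncoding RNAs, Malat1, Neat1, Meg3, Miat, Snhg11 and Rian, were examined in mouse dorsal root ganglion (DRG), the cluster of sensory neuron cell bodies beside the spinal cord, before and after dissociation and after sorting. Each of the 6 genes matched exactly 1 of the 24490 rows of the expression table by its symbol. They were chosen by name as nuclear and neuronal noncoding RNAs, with the values of these same 12 samples and the differences between preparations already known, so the differences of the 6 genes are given as a description and no p-value is printed for them. RNA sequencing of poly(A)-selected RNA was carried out on 3 preparations, all from adult C57Bl/6 mice, with 4 samples in each. Intact samples were whole ganglia taken ex vivo from 1 mouse each. Unsorted samples were acutely dissociated ganglia pooled from 2 mice each. MACS-sorted samples were dissociated ganglia pooled from 8 mice each and passed through a magnetic column that holds back cells labelled with a cocktail of antibodies to non-neuronal cells, so that the eluate is enriched for neurons. Values are FPKM, a count of fragments per kilobase of transcript scaled to the mapped fragments of each sample, which corrects for transcript length and depth.

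Long noncoding RNAs are transcripts that are capped, often spliced and often polyadenylated, yet act as RNA, and many stay in the nucleus. Malat1 collects in nuclear speckles, the bodies that store splicing factors, whereas the long form of Neat1 is the scaffold on which paraspeckles assemble. Meg3 and Rian are transcribed from the maternal chromosome in the Dlk1-Dio3 imprinted domain, where Rian hosts a large cluster of small nucleolar RNAs (snoRNAs). Miat, also known as Gomafu, is a nuclear RNA of neurons that binds splicing regulators, and Snhg11 is a snoRNA host gene known for its expression in the nervous system.

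The 3′ ends of these RNAs bear directly on what a poly(A)-selected library can hold, so they are shown first. The 3′ end of Malat1 and of long Neat1 is made by cleavage next to a tRNA-like structure, and is protected by a triple helix between U-rich runs and an A-rich tract that the genome itself encodes. The sequences below, read from the GENCODE vM21 transcripts of the mm10 genome and written 5′ to 3′ as DNA letters, show the pair of T-rich runs and the A-rich tract in capitals. Malat1 is on the minus strand at chr19:5795976-5796073 and long Neat1 on the minus strand at chr19:5824708-5824803.
Malat1: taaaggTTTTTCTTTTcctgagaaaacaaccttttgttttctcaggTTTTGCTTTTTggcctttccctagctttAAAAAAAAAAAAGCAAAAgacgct
Long Neat1: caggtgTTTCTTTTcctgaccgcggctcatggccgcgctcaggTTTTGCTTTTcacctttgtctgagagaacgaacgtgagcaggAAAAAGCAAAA

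The A-rich tract is 18 bases long in Malat1, with an uninterrupted run of 12 A, and 11 bases long in Neat1, with a run of 5 A. The same arrangement, T-rich runs of at least 3 T, an optional G, C and at least 4 T, present as a pair and followed within 200 bases by at least 5 A, GC and at least 3 A, was found in 11 of 141767 GENCODE transcripts (0.00776%), from 8 of 55341 genes, the search being made on the transcript strand only. The lower limits of 3 T, 4 T and 5 A equal the shortest such runs in Neat1, and the Malat1 runs are no shorter. Both RNAs therefore had to match, and the share is a description of this pattern only. In Malat1 the annotated transcript runs 292 bases past its A-rich tract, to an end that follows a polyadenylation hexamer. In long Neat1 the annotated transcript stops at the tract.

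The polyadenylated ends of the other forms hold the AATAAA hexamer, shown in capitals in the last 60 bases of the annotated transcripts. It lies within the last 50 bases in the transcripts examined for 5 of the 6 genes. The Malat1, Neat1, Meg3, Rian and Snhg11 transcripts hold it 22, 20, 24, 11 and 21 bases before their ends, counted from the hexamer's first base, and the longest Miat transcript lacks it there. The Rian transcript shown ends at chr12:109655009, short of the counted locus end at chr12:109661711. Its hexamer lies in a run of A, and whether this is a polyadenylated end was not tested.
Malat1 (chr19:5795690-5795749, minus): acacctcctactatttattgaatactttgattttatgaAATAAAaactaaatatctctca
Short Neat1 (chr19:5842307-5842366, minus): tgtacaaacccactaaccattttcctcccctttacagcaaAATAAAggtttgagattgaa
Meg3 (chr12:109571667-109571726, plus): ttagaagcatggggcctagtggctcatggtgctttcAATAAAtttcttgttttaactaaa
Rian (chr12:109654950-109655009, plus): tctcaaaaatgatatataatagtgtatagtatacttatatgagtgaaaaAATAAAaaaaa
Snhg11 (chr2:158386086-158386145, plus): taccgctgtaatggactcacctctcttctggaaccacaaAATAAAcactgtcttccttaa
Miat (chr5:112213228-112213287, minus): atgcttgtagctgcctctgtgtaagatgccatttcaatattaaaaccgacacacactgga

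Miat is known for copies of the hexamer ACTAAC, the branch point sequence bound by splicing factor 1. The longest annotated Miat transcript, of 9163 bases, held 11 copies on the transcript strand, or 1.2 copies per kilobase, compared with a median of 0.0912 over the 7040 GENCODE transcripts of at least 5000 bases. Only 1 transcript of another gene in that set was as dense. Among windows of equal length that begin at a copy, the first with the most copies held 4, in capitals (chr5:112217309-112217459, minus).
Miat: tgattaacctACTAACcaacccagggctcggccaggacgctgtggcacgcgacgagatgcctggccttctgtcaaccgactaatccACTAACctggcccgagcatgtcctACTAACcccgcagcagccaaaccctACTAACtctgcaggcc

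The loci differ in structure. Malat1 was counted over a single exon of 7.0 kb (chr19:5795690-5802671, minus strand). Neat1 lies on the same chromosome and strand, and was counted over 3.2 kb (chr19:5842302-5845478), which is the short polyadenylated form. The annotated gene extends to chr19:5824708, and the long transcript of 20771 bases shares its 5′ part with the short one, so fragments of both forms could be counted there and the deposited value does not separate them. Meg3 (chr12:109540996-109571729, plus strand, 30.7 kb) has 11 annotated transcripts and 2 microRNA genes within it. Rian, downstream of it on the same strand (chr12:109603945-109661711, 57.8 kb), has 20 transcripts, 13 snoRNA genes and 4 microRNA genes. Miat (chr5:112213228-112228948, minus strand, 15.7 kb) is overlapped by an antisense noncoding gene, Gm26953, and Meg3 by another, Gm26906. Malat1 has an opposite-strand partner typed TEC by GENCODE, Gm37376 (chr19:5801941-5802393). Libraries were made with a directional kit, and whether strand was used in counting is not given in the sources used here, so reads of Malat1, Miat and Meg3 and of these partners may be mixed. A noncoding gene, Gm26945 (chr12:109640341-109642351), lies within Rian on the same strand, so reads of Rian and Gm26945 may be mixed even if strand was used. Snhg11 (chr2:158375638-158386145, plus strand, 10.5 kb) hosts 2 snoRNA genes and is typed as lncRNA by RefSeq and as protein-coding by GENCODE. No protein-coding gene of GENCODE overlaps any of the 6 counted loci.

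Promoter sequences of 300 bases, 250 before and 50 after the start, were taken from RefSeq (GRCm38.p6) for 5 of the 6 genes, and not for Neat1. Meg3, which differed most between intact and unsorted ganglia, is shown (chr12:109540746-109541045, plus strand), with 3 searched motifs in capitals, each searched on both strands. The palindrome TGACGTCA, the cAMP response element, begins 57 bases before the start and is held by 1.79% of the 32851 promoters. TATAAA begins 25 bases before the start, overlapping its reverse complement, which begins 29 bases before, and is held by 13.6% of promoters. CCAAT begins 100 bases before the start and is held by 37.4%. The promoters of Snhg11, Malat1 and Rian and the other Meg3 promoter held none of these motifs or GGGCGG, and that of Miat held GGGCGG, which 35.7% of promoters hold.
Meg3: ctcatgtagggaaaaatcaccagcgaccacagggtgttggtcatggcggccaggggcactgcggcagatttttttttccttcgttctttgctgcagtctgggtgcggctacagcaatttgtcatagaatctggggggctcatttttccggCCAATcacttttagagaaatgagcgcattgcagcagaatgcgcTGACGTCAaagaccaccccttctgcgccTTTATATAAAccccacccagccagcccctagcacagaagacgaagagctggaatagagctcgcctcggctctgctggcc

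The libraries need to be described before the results. Depth was inferred from the smallest steps by which low FPKM values rise, taking genes that have 1 transcript and assuming 150-base fragments. It came to between 16300000 and 19300000 fragments a sample for intact ganglia, between 15700000 and 18500000 for unsorted and between 13700000 and 17200000 for MACS-sorted cells. At this depth the lowest value among Malat1 and Neat1, 4.56 FPKM for Neat1 in MACS-sorted sample 2, stands for about 205 fragments and a counting error near 6.99%, and such an error covers counting alone. Sensory neuron markers were high in sum in every sample. Their 8 genes added up to 3618 to 3983 FPKM for intact, 4344 to 4702 for unsorted and 4422 to 5778 for sorted samples. The single genes did not all move with the sum. By the limits set out below, 3 of the 8 were higher in MACS-sorted than in unsorted samples and 1 was lower. The lower one was Snap25, at 314 FPKM in sorted and 605 FPKM in unsorted samples. RNA linked to the sex chromosomes differed with preparation. Xist, the noncoding RNA of the inactive X chromosome, was 16.1 to 24.4 FPKM in intact samples, at most 0.0178 in unsorted and at most 0.337 in MACS-sorted samples. The Y-linked genes Eif2s3y and Kdm5d were listed at 0 in all 4 intact samples and were at 10.1 to 12.8 and 2.34 to 2.60 FPKM in unsorted samples, and both were present in every MACS-sorted sample. Xist without these Y-linked RNAs is the pattern of female tissue, and the reverse is that of male tissue. The methods of the study describe male mice and the labels give no sex. In both comparisons that use intact samples, the preparation and the sex seen in the RNA therefore cannot be told apart. Unsorted samples 1 and 2 were the closest pair of replicates, with a median absolute difference of 0.037 on the log2 scale over genes averaging 20 FPKM or more, against 0.0658 to 0.336 for the other pairs. Intact sample 1 and MACS-sorted sample 4 stood apart from the other samples of their groups, and values without them are given where they matter.

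**Figure D1:**
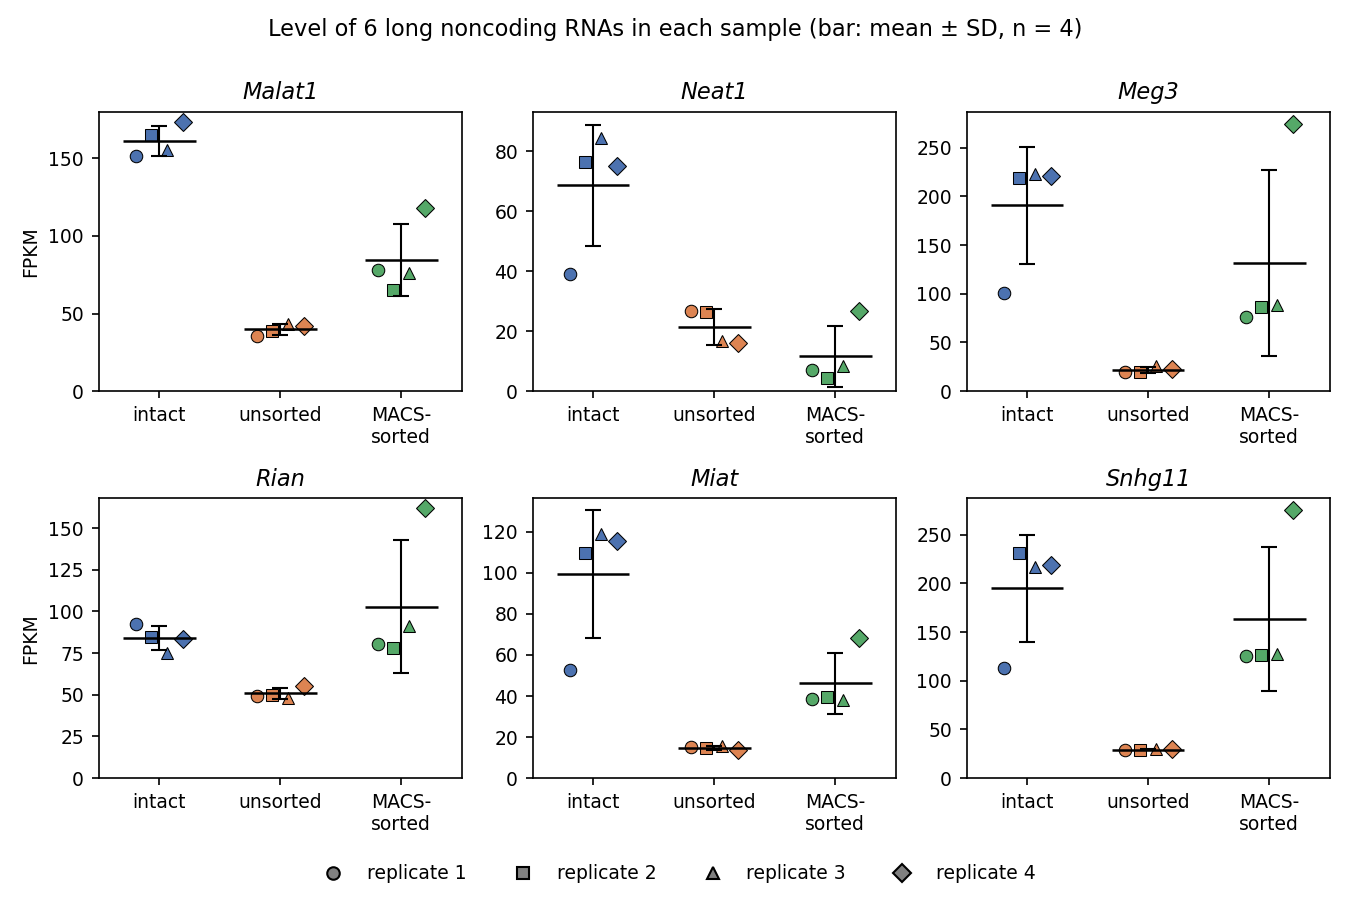
FPKM (y axis, linear from 0) of each of the 6 RNAs in intact, unsorted and MACS-sorted samples, with 1 symbol per replicate and a bar for the mean ± SD (n = 4). All 4 unsorted points lie below all 4 intact points in each panel, and MACS-sorted replicate 4 (diamond) is the highest of its group for all 6 RNAs.

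In dissociated, unsorted ganglia all 6 RNAs were lower than in intact ganglia, by 1.65-fold (Rian) to 8.70-fold (Meg3). A difference is counted below as passing when limma's Benjamini-Hochberg adjusted p was under 0.05, the log2 ratio of the means was beyond 0.5 and the higher group's mean was above 5 FPKM. All 6 were lower by this measure, as were 2.76% of the 12392 genes tested, while 4.29% were higher, and since the 6 were chosen with these values known, nothing is read from their count. Their median difference was -2.34 on the log2(FPKM + 0.1) scale, beside 0.013 over all genes tested. Every unsorted sample lay below every intact sample for all 6 RNAs, as for 12% of genes tested. The split of all passing genes, 531 higher and 342 lower, changed to 343 higher and 431 lower when red blood cell genes were removed and samples rescaled, and to 421 and 408 after quantile normalization, and the 6 RNAs were lower under each. As these are bulk samples, fewer cells of a type and less RNA per cell cannot be told apart.

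Malat1, of the nuclear speckles, was 152, 165, 155 and 173 FPKM in intact samples 1 to 4. In unsorted samples it was 35.5, 38.8, 43.4 and 41.9 FPKM. The intact samples were thus tightly grouped, with no overlap with the unsorted samples. Its mean fell from 161 ± 9.75 to 39.9 ± 3.51 FPKM (SD, n = 4), a difference of -2.02 ± 0.083 (SE) on the log2 scale.

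Neat1, of the paraspeckles, was 39.1, 76.6, 84.3 and 75.1 FPKM in intact samples. In unsorted samples it was 26.6, 26.5, 16.6 and 16 FPKM. Intact sample 1 was the lowest of its group but above every unsorted sample, and the unsorted samples formed a higher pair (1 and 2) and a lower pair (3 and 4). The means were 68.8 ± 20.2 and 21.4 ± 5.92 FPKM, and the difference was -1.66 ± 0.27 (SE) on the log2 scale.

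Meg3, the maternally expressed RNA at the head of the imprinted noncoding cluster, showed the greatest difference of the 6. It was 101, 219, 223 and 221 FPKM in intact samples. In unsorted samples it was 19.5, 19.8, 25.4 and 23.1 FPKM. Intact samples 2 to 4 were nearly equal and sample 1 was well below them, although still far above every unsorted sample. The mean fell from 191 ± 60.2 to 21.9 ± 2.84 FPKM, or by 3.05 ± 0.25 (SE) on the log2 scale.

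Rian, which lies downstream of Meg3, showed the smallest difference. It was 92.4, 84.8, 74.8 and 83.7 FPKM in intact samples and 49.4, 49.9, 48.3 and 55.6 FPKM in unsorted samples. Both groups were narrow and did not overlap, and intact sample 1 was the highest of its group for Rian and the lowest for Meg3. Its difference was -0.72 ± 0.082 (SE) on the log2 scale. The ratio of Meg3 to Rian in the same sample, a ratio of FPKM values, ran from 1.09 to 2.98 for intact, from 0.395 to 0.525 for unsorted and from 0.943 to 1.7 for sorted samples. The 2 neighbouring RNAs therefore did not move by the same factor, and Meg3 exceeded Rian in each intact sample while Rian exceeded Meg3 in each unsorted one.

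Miat was 52.8, 109.5, 119 and 116 FPKM in intact samples. In unsorted samples it was 15, 14.5, 15.9 and 13.7 FPKM. The unsorted samples lay within a narrow band and intact sample 1 again lay apart from the other 3. The means were 99.2 ± 31.2 and 14.8 ± 0.930 FPKM, and the difference was -2.67 ± 0.24 (SE) on the log2 scale.

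Snhg11 was 113, 231, 217 and 218 FPKM in intact samples and 28.6, 28.7, 29.9 and 30.4 FPKM in unsorted samples. It had the narrowest unsorted group of the 6, with an SD of 3.14% of the mean, against 28.1% in intact samples, where sample 1 was low. Its difference was -2.67 ± 0.21 (SE) on the log2 scale. In the order of mean level among all 24490 genes, Snhg11 ranked 179 and Meg3 185 in intact samples, and 2282 and 3057 in unsorted samples. Among the 1719 genes whose name in the table RefSeq types as long noncoding RNA, they were also the 2 highest in intact samples. All 6 RNAs were among the first 6 of that class. In unsorted samples the ranks of the 6 within the class ran from 2 (Rian) to 12 (Miat). The class was matched by gene name and left out Norad, at 153 FPKM in intact and 176 FPKM in unsorted samples. Norad lay above Miat, Rian and Neat1 in intact samples and above all 6 in unsorted samples. These ranks therefore hold within the matched class only.

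Without intact sample 1, the differences of Neat1, Meg3, Miat and Snhg11 between unsorted and intact samples were -1.91, -3.34, -2.95 and -2.91 on the log2 scale, and that of Rian was -0.67. All 6 remained past the limits in each fit with 1 sample left out. Markers of fibroblasts moved with this comparison, with 5 of 6 genes lower in unsorted samples and summed levels of 496 to 942 FPKM in intact and 168 to 337 FPKM in unsorted samples, none at 0. Endothelial markers moved the other way, with 4 of 6 higher and summed levels of 20.3 to 23.7 FPKM in intact and 38.2 to 50.5 FPKM in unsorted samples. Of 7 markers of large-diameter neurons, 4 were higher, among them the heavy neurofilament gene Nefh, and the sums were 583 to 775 and 832 to 1024 FPKM. Among macrophage markers 1 of 5 tested was lower, Csf1r, and the sums over 6 genes were 10.3 to 22.1 and 4.8 to 8.82 FPKM. No marker of these 3 lists was at 0 in an intact or unsorted sample. Their part in the differences of the 6 RNAs was not tested.

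**Figure D2:**
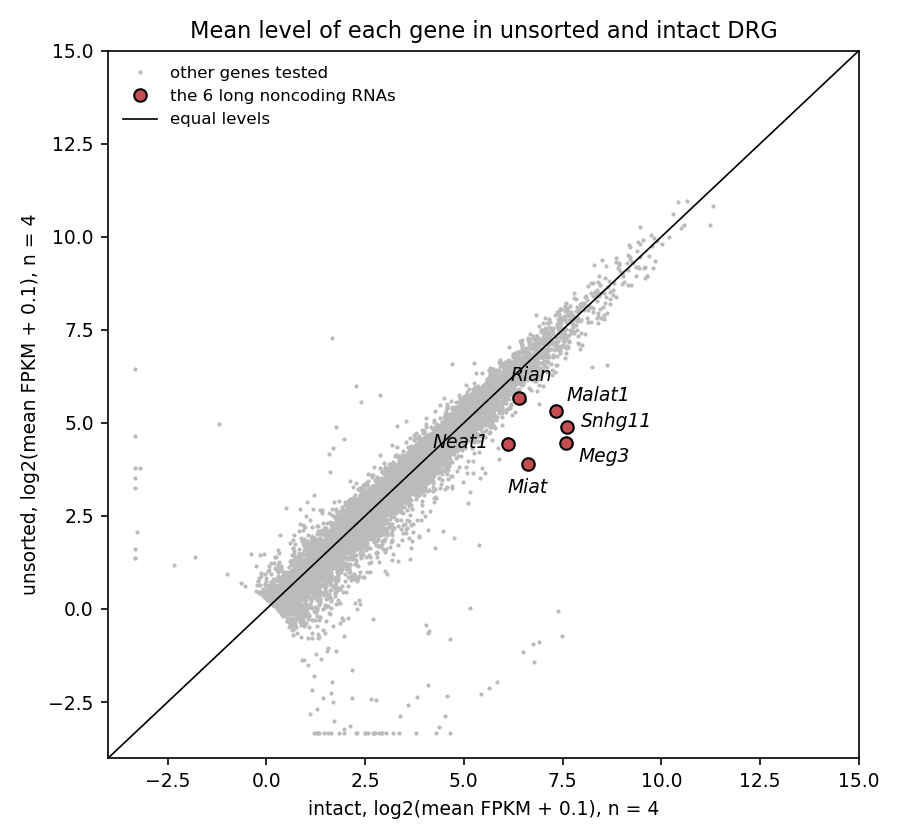
Mean level of each of the 12392 genes tested in intact (x axis) and unsorted (y axis) samples, both as log2(mean FPKM + 0.1), n = 4 a group, with the line of equal levels. The 6 RNAs (red) all lie below the line, Rian nearest to it and Meg3 and Miat farthest among the 6.

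After sorting, 5 of the 6 RNAs stood above their unsorted level and Neat1 did not. Snhg11 was 5.56-fold, Meg3 5.99-fold, Miat 3.14-fold, Malat1 2.12-fold and Rian 2.03-fold higher in the means of MACS-sorted samples, and the same 5 were past the limits, beside 8.15% of the 12038 genes tested that were higher and 12.5% that were lower. For these 5 the lowest sorted value exceeded the highest unsorted one, as for 18.4% of genes tested. The median of the 6 differences was 1.32 on the log2 scale, beside -0.041 over all genes tested. After quantile normalization the split of all passing genes changed from 981 higher and 1505 lower to 1382 and 1285, with the same 5 higher. Since unsorted samples enter this comparison and the one above, the values of both are given side by side and no relation between them is drawn.

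Malat1 was 78.3, 65.2, 75.9 and 118 FPKM in MACS-sorted samples 1 to 4. Samples 1 to 3 were close together, sample 4 was the highest, and all were above the highest unsorted value. The difference from unsorted samples was 1.05 ± 0.16 (SE) on the log2 scale.

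Neat1 was 6.99, 4.56, 8.51 and 26.7 FPKM in MACS-sorted samples. Samples 1 to 3 lay below every unsorted sample and sample 4 lay at the top of the unsorted range. The difference of -1.16 ± 0.46 (SE) on the log2 scale did not pass, and it passed without MACS-sorted sample 4, at -1.67, and when all 12 samples shared 1 fit. The ratio of Neat1 to Malat1, a ratio of FPKM values, ran from 0.258 to 0.543 for intact, from 0.381 to 0.75 for unsorted and from 0.0699 to 0.226 for sorted samples, with no overlap between the sorted samples and the others.

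Meg3 was 75.9, 86.8, 89.0 and 275 FPKM in MACS-sorted samples, and Snhg11 was 125, 127, 128 and 275 FPKM. For both RNAs samples 1 to 3 were closely grouped and sample 4 was far above them. The differences from unsorted samples were 2.36 ± 0.35 (SE) for Meg3 and 2.38 ± 0.23 (SE) for Snhg11 on the log2 scale, and 1.94 and 2.1 without sample 4.

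Miat was 38.8, 39.6, 38.1 and 68.5 FPKM in MACS-sorted samples, with the same high sample. Its difference from unsorted samples was 1.60 ± 0.17 (SE). Rian was 80.5, 78.0, 91.2 and 162 FPKM, with a difference of 0.95 ± 0.20 (SE), or 0.71 without sample 4.

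MACS-sorted sample 4 was also the highest of the sorted samples in the summed markers of several other cell types. Red blood cell markers, 7 of 10 of which were higher in MACS-sorted than in unsorted samples, summed to 1491 to 12810 FPKM in sorted, 108 to 353 in unsorted and 219 to 633 in intact samples, and Hba-a1 was listed at 0 throughout. Schwann cell markers summed to 518 to 590 FPKM in sorted samples 1 to 3 and 1198 in sample 4, against 1916 to 3160 in unsorted samples, with 6 of 7 lower after sorting. Fibroblast markers summed to 7.62 to 32.4 FPKM in sorted samples, with 5 of 6 lower, and Lum was at 0 in at least 1 of them. Satellite glia markers summed to 84.6 to 139.6 FPKM against 527 to 721 in unsorted samples, with 6 of 7 lower. Endothelial markers were not lowered in this way, and none of 6 passed in either direction. They summed to 11.4 to 68.1 FPKM in sorted samples, highest in sample 4, against 38.2 to 50.5 FPKM in unsorted samples. Markers of neuron types differed as well. Of 7 markers of large-diameter neurons, 6 were lower after sorting and none higher, and they summed to 81.2 to 154 FPKM in sorted samples, against 832 to 1024 in unsorted samples. Of 8 markers of small-diameter nociceptors, 6 were higher, among them the sodium channel gene Scn10a, with sums over the list of 1702 to 1773 FPKM in unsorted and 1584 to 2389 FPKM in sorted samples. None of these neuronal markers was at 0 in an unsorted or sorted sample. The part of these cells in the levels of the 6 RNAs was not tested. Without sample 4 the same 5 RNAs were past the limits in the same direction.

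Set against intact ganglia, MACS-sorted samples held less Malat1, Neat1 and Miat. Their differences on the log2 scale were -0.97 ± 0.17, -2.82 ± 0.48 and -1.08 ± 0.29 (SE), and these 3 passed, beside 10.7% of the 12234 genes tested that were lower and 7.54% that were higher. Sorted samples lay below every intact sample for Malat1 and Neat1, as for 21.9% of genes tested, and overlapped with intact sample 1 for Miat. Meg3, at -0.69 ± 0.42, Snhg11, at -0.29 ± 0.31, and Rian, at 0.23 ± 0.21 (SE), did not pass, and their groups overlapped. Expressed as a percentage of the intact mean, the sorted level was 17% for Neat1, 46.6% for Miat, 52.3% for Malat1, 68.9% for Meg3, 83.9% for Snhg11 and 123% for Rian.

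This order depended on the samples that stood apart. Without MACS-sorted sample 4, Meg3 also passed, at -1.12 on the log2 scale, and 4 RNAs were lower, while the difference of Rian became -0.011. Without both intact sample 1 and MACS-sorted sample 4, Snhg11 passed as well, at -0.81, so that 5 were lower, and the sorted level was 8.50% of the intact mean for Neat1, 33.8% for Miat, 37.9% for Meg3, 44.4% for Malat1, 56.9% for Snhg11 and 103% for Rian. The difference of Rian from intact samples passed in none of these fits.

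**Figure D3:**
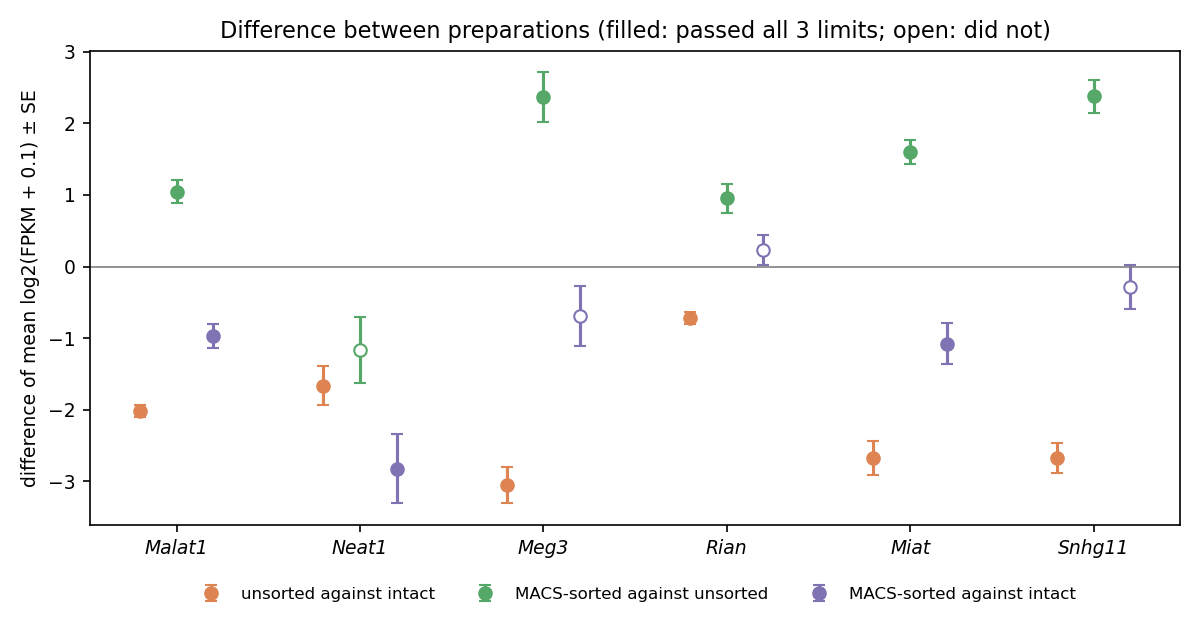
Difference of mean log2(FPKM + 0.1) between preparations for each RNA (y axis; points with SE bars, n = 4 samples a group), with filled points for differences past all 3 limits and open points for those that were not. Unsorted against intact (orange) is negative for all 6, from -0.72 to -3.05, and MACS-sorted against unsorted (green) is positive for all but Neat1.

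Other noncoding RNAs in the table were compared through lists that had been drawn up with earlier results of these data known. The adjusted p-values printed for genes of these lists, and of the protein lists further below, are therefore a description and not independent tests. Of the other RefSeq-typed long noncoding RNA genes, 153 were tested between unsorted and intact samples, and 12 of them (7.84%) were lower and 2 (1.31%) higher, with a median of -0.29 on the log2 scale, beside 2.58% lower, 4.36% higher and a median of 0.018 for protein-coding genes. Between MACS-sorted and unsorted samples 138 were tested, and 13 (9.42%) were higher and 5 (3.62%) lower, beside 8.05% and 12.8% of protein-coding genes. Without unsorted sample 3, or without unsorted sample 4, the number lower after dissociation was 7 and none was higher. Nothing particular to the class is read from these counts.

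The snoRNA host genes, which carry snoRNAs in their introns, were compared first. Over all genes tested between unsorted and intact samples, 2.76% were lower and 4.29% higher. Of 11 host genes tested, 2 were lower and none higher, and the median was -0.60 on the log2 scale. These were Gas5, which fell from 9.01 ± 0.463 to 4.44 ± 1.52 FPKM (adjusted p = 0.011, limma), and Snhg5, which fell from 5.88 ± 1.90 to 3.60 ± 0.206 FPKM (adjusted p = 0.037, limma). The number was 1 to 3 as single samples were left out, and 1 without intact sample 1, 2 or 4 or without any 1 unsorted sample. In MACS-sorted against unsorted samples 8.15% of all genes tested were higher and 12.5% lower. Of the 11 host genes, 3 were higher and none lower. Gas5 rose to 12.3 ± 6.60 FPKM (adjusted p = 0.0067), Snhg5 to 7.81 ± 1.25 FPKM (adjusted p = 8.9e-05) and Snhg6 from 11.3 ± 1.01 to 17.9 ± 5.39 FPKM (adjusted p = 0.016, limma throughout). MACS-sorted sample 4, at 22.2 FPKM, raised the Gas5 mean, which was 9.05 ± 0.572 FPKM (n = 3) without it. Snhg18 differed in the other direction, at 0.258 ± 0.184 FPKM in sorted against 3.48 ± 0.489 FPKM in unsorted samples (adjusted p = 5.8e-05, limma), with both means under the level limit. Against intact samples none of 12 passed in limma, and Snhg18, a host gene at 0.258 FPKM in sorted and 4.98 FPKM in intact samples, was below the level limit although its adjusted p was 0.00011.

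Over all genes tested, 2.76% were lower in unsorted than in intact samples and 4.29% higher. Of 13 other long noncoding RNAs tested, 4 were lower and none was higher. They were Xist, described above, H19, Mirg and Firre. Mirg, a further maternally expressed RNA of the Dlk1-Dio3 domain and host of microRNAs, was 5.52, 8.85, 9.17 and 7.62 FPKM in intact and 2.67, 2.84, 4.95 and 3.29 FPKM in unsorted samples (adjusted p = 0.0081, limma). It was 4.97, 9.72, 6.63 and 26.0 FPKM in MACS-sorted samples, again with sample 4 highest, and passed against unsorted samples (adjusted p = 0.02, limma). Firre, a nuclear RNA of the X chromosome, was 10.9 ± 2.89 FPKM in intact and 4.69 ± 0.453 FPKM in unsorted samples (adjusted p = 0.0061, limma). For this X-linked RNA, as for Xist, dissociation and the sex seen in the RNA cannot be told apart. Firre was 10.7 ± 4.50 FPKM after sorting (adjusted p = 0.003 against unsorted, limma). Without MACS-sorted sample 4, at 17.4 FPKM, its sorted mean was 8.45 ± 0.523 FPKM (n = 3). H19, an imprinted RNA, fell from 26.7 ± 22.4 to 3.62 ± 1.98 FPKM (adjusted p = 0.0093, limma). Intact sample 1, at 60.3 FPKM, carried the intact mean, which was 15.5 ± 0.7 FPKM (n = 3) without it. H19 was listed at 0 in 3 of 4 sorted samples.

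Some abundant long noncoding RNAs did not follow this course. Norad, a cytoplasmic RNA that binds Pumilio proteins, was 153 ± 17.6 FPKM intact, 176 ± 6.61 unsorted and 117 ± 11.7 sorted, and the fall after sorting passed (adjusted p = 0.00029, limma). Oip5os1, also called Cyrano, was 29.2 ± 6.15, 31.6 ± 3.26 and 20.4 ± 3.44 FPKM, with the same pattern (adjusted p = 0.0019 for sorted against unsorted, limma). Peg13, an imprinted RNA expressed from the paternal chromosome, was 52.1 ± 5.5 FPKM intact, 72.4 ± 4.3 unsorted and 52.2 ± 5.99 sorted, and neither difference reached the limit on the ratio of means. Tug1 was 12.3 ± 1.32 FPKM in intact and 12.5 ± 0.574 in unsorted samples.

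Protein-coding neighbours were examined for Meg3 and Rian and for Neat1 and Malat1. Of the coding genes of the Dlk1-Dio3 domain and its edge, 3 of 6 were expressed enough to test, and none passed in any of the 3 comparisons by limma, although Wdr25 (adjusted p = 0.044 for unsorted against intact and 0.013 for sorted against unsorted) and Begain (adjusted p = 0.002 for sorted against unsorted and 0.0019 against intact) had an adjusted p under 0.05. Dlk1, the imprinted gene that gives the domain its name, was at most 0.693 FPKM in any sample. Of the coding neighbours of Neat1 and Malat1, none of 6 tested passed between unsorted and intact samples. In MACS-sorted against unsorted samples Ehbp1l1 was higher, at 9.86 ± 1.42 against 5.67 ± 0.321 FPKM (adjusted p = 0.00034, limma), and Ltbp3 was lower, at 9.71 ± 0.753 against 15.2 ± 1.44 FPKM (adjusted p = 0.00033, limma).

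The mRNAs of proteins of the nuclear speckles and paraspeckles, the bodies in which Malat1 and Neat1 reside, were compared in the same way. Of 18 nuclear speckle and SR proteins tested, 1 was lower in unsorted than in intact samples, Pnisr, an SR-rich splicing protein, at 7.36 ± 0.276 against 15.2 ± 4.65 FPKM (adjusted p = 0.019, limma), and the median over the list was -0.18 on the log2 scale. Of 16 paraspeckle proteins, 1 was lower, the RNA-binding protein Ewsr1, at 15.8 ± 0.754 against 22.6 ± 1.95 FPKM (adjusted p = 0.0047, limma), with a median of -0.13. In these 2 lists the number lower ranged from 0 to 3 as single samples were left out. Over all genes tested, 2.76% were lower in this comparison.

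Over all genes tested, 8.15% were higher and 12.5% lower in MACS-sorted than in unsorted samples. Of 18 speckle and SR proteins, 7 were higher and none lower, with a median of 0.35 on the log2 scale. Among them, Luc7l3 rose from 14.2 ± 0.702 to 30.8 ± 14.2 FPKM (adjusted p = 0.0054), Srsf5 from 33.8 ± 2.87 to 53.8 ± 13.4 FPKM (adjusted p = 0.0089) and Acin1 from 12.5 ± 2.37 to 23.8 ± 3.93 FPKM (adjusted p = 0.0008, limma throughout). Without MACS-sorted sample 4, the sorted mean of Luc7l3 was 23.7 ± 0.25 FPKM (n = 3), and the number of the list past the limits was 4. Of 16 paraspeckle proteins 1 was higher, Hnrnpa1, which rose from 7.40 ± 0.833 to 13.3 ± 1.44 FPKM (adjusted p = 0.00019, limma).

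Of the 3 proteins known to bind Miat that were examined, the neuronal splicing regulator Celf3 was lower in unsorted than in intact samples, at 3.66 ± 0.294 against 5.71 ± 0.803 FPKM (adjusted p = 0.0088, limma), and rose to 10.5 ± 1.77 FPKM after sorting (adjusted p = 2.2e-05, limma). Qk, a regulator abundant in glia, fell after sorting from 50 ± 10.4 to 5.02 ± 2.90 FPKM (adjusted p = 5.8e-05, limma). Sf1, which binds the ACTAAC repeats shown above, was 17.5 ± 0.13 FPKM intact, 20.5 ± 1.23 unsorted and 23.4 ± 1.08 sorted, and did not reach the limit on the ratio of means in any comparison.

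**Figure D4:**
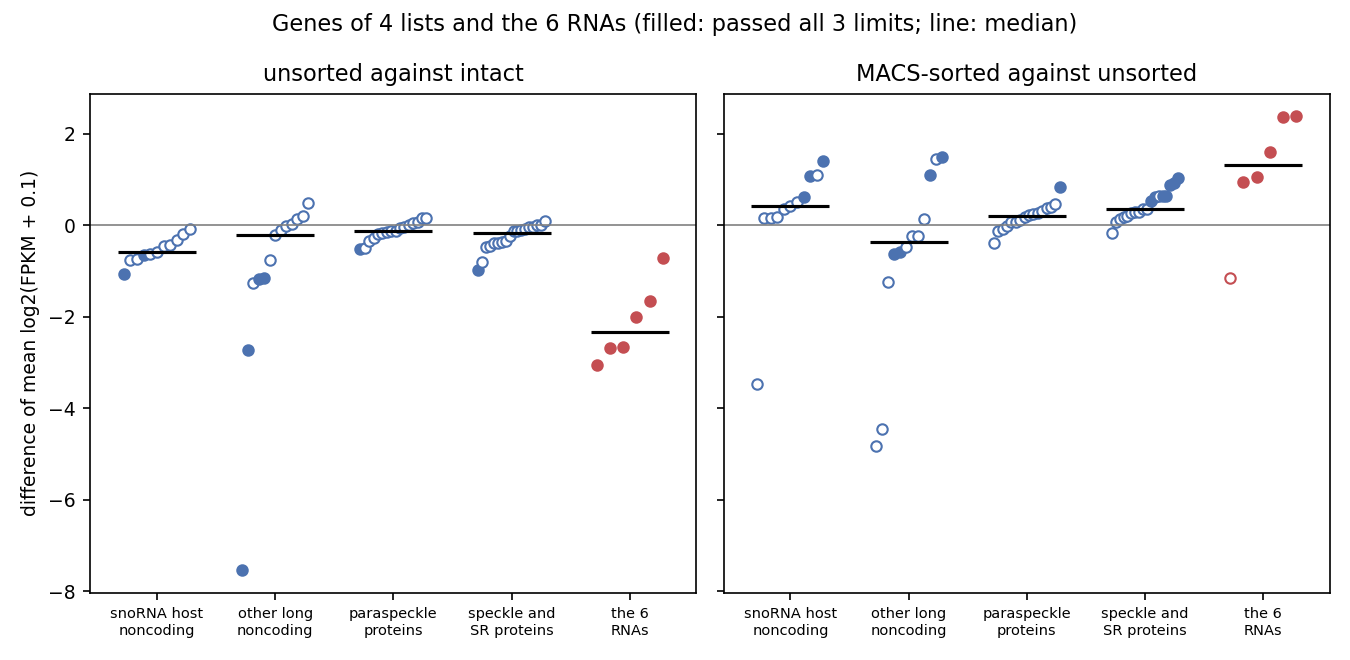
Difference of mean log2(FPKM + 0.1) for each tested gene of 4 lists (blue) and for the 6 RNAs (red), with filled points for differences past all 3 limits and a line at each median. In unsorted against intact samples the list medians lie between -0.60 and -0.13 and that of the 6 RNAs at -2.34.

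The genes whose pattern was most like each RNA were found by Pearson's r of log2(FPKM + 0.1) over the 12 samples, among 8262 genes averaging 5 FPKM or more. The 12 points share 3 preparations and 2 samples that stood apart, so r is a description and has no p-value. Meg3 was most like A930011O12Rik (r = 0.997), a gene known by its clone name, at 19.3 ± 4.88 FPKM intact, 3.03 ± 0.224 unsorted and 12.4 ± 7.29 sorted, and then Snhg11 (0.988) and Miat (0.971). Within preparations, after each group's mean was removed, r of Meg3 with A930011O12Rik and Snhg11 was 0.987 and 0.979. Snhg11 was most like Meg3, A930011O12Rik (0.982) and Arhgap33 (0.973). Miat was most like Leng8 (0.991), at 34.4 ± 11.2, 7.10 ± 0.361 and 16 ± 4.37 FPKM in intact, unsorted and MACS-sorted samples, followed by A930011O12Rik (0.982) and Meg3. Malat1 was most like Miat (0.967), A930011O12Rik (0.955) and Leng8 (0.954), although within preparations its r with Miat was 0.620.

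Rian and Neat1 had other neighbours. Rian was most like Epc1 (r = 0.961), Ivns1abp (0.959) and Arglu1 (0.956), and its r with Meg3 was 0.840. Arglu1, a splicing regulator, was 25.4 ± 1.85 FPKM intact, 15.4 ± 1.03 unsorted and 34.9 ± 12.7 sorted. Neat1 was most like Flna (0.954), which encodes the actin crosslinker filamin A, Col6a2 (0.951), a collagen chain, and Vegfa (0.944), a growth factor for blood vessels, all lowest on average in MACS-sorted samples. Col6a2 was 19.7 ± 2.93, 7.82 ± 2.79 and 2.76 ± 1.83 FPKM in intact, unsorted and MACS-sorted samples. Its pattern among the unsorted samples, 10.1 and 10.4 FPKM in samples 1 and 2 and 5.39 and 5.43 in samples 3 and 4, had the same pairs as Neat1. The r of Neat1 with the other 5 RNAs was 0.080 with Rian, 0.287 with Snhg11, 0.401 with Meg3, 0.525 with Miat and 0.567 with Malat1 over the 12 samples. Within preparations, after each group's mean was removed, it was 0.692, 0.847, 0.819, 0.784 and 0.736 in the same order.

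**Figure D5:**
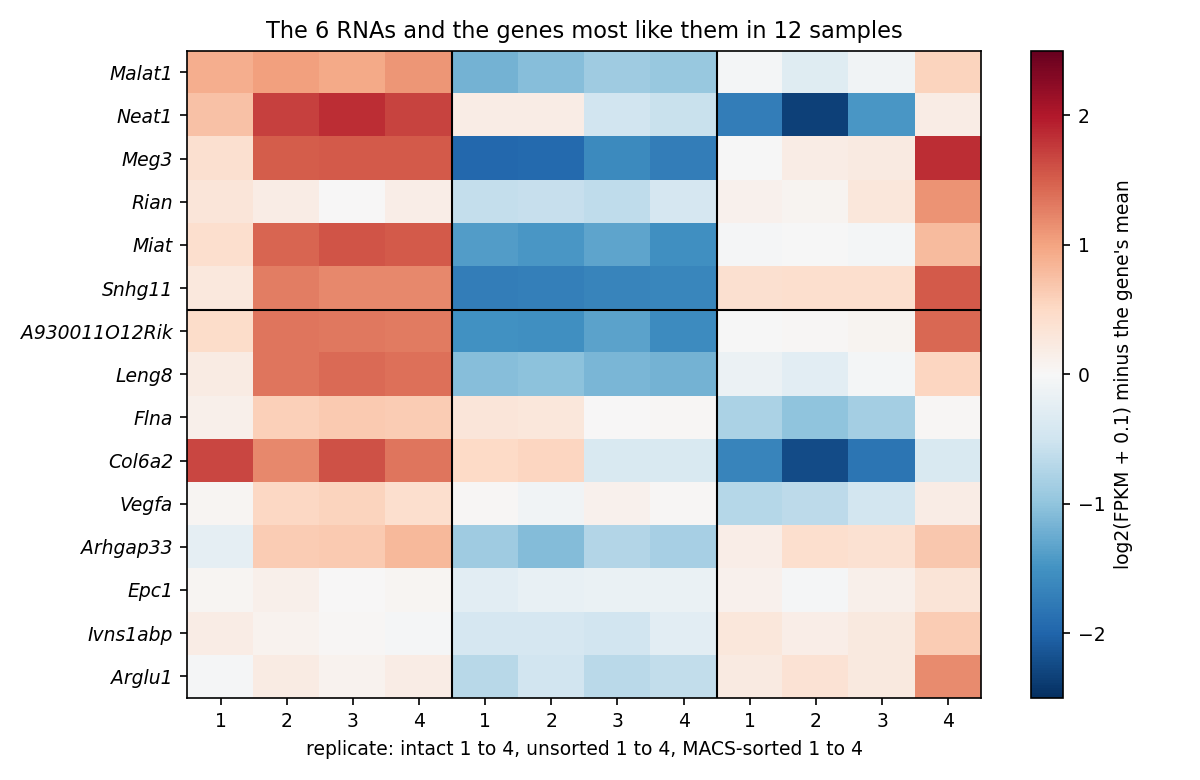
Heat map of log2(FPKM + 0.1) minus each gene's mean over 12 samples (colour scale, red above and blue below the mean), for the 6 RNAs (upper rows) and the genes most like them (lower rows), by replicate. Miat, Meg3, Snhg11, Leng8 and A930011O12Rik are below their means in all 4 unsorted samples, whereas Neat1 and Col6a2 are lowest in MACS-sorted samples 1 to 3.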

How the data were processed

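Poly(A)-selected RNA from intact, unsorted and MACS-sorted mouse DRG was sequenced as 4 samples a group. Per the labels and the study's methods, the authors aligned reads to mm10 with TopHat2, merged lanes with SAMtools and deposited FPKM values computed with Cufflinks 2.1.1, 1 value per gene and sample. Multiply mapped reads and isoforms were shared out by those tools, which can move the values of genes with several transcripts. Read counts were not used here, and depth was estimated from the steps of low FPKM values. FPKM values were taken as log2(FPKM + 0.1), and genes averaging 1 FPKM or more in the 2 groups compared were fitted with limma 3.58.1 in R 4.3.3 (intensity trend, two-sided, Benjamini-Hochberg over all genes tested), after a test on simulated data. Differences counted as passing also had a log2 ratio of means beyond 0.5 and more than 5 FPKM in the higher group. The 6 RNAs and all gene lists were chosen with earlier results of these data known. Named genes were the 6 RNAs, genes of those lists and the 3 genes most like each RNA. Replicates are separate samples per the methods. Alternatives were another pseudocount, filter, scaling, sample set or replicate block, and leaving out each sample. Sequences came from GENCODE vM21 and RefSeq, both on GRCm38 (mm10), and Python 3.11 with matplotlib was used for sequences and figures.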

Additional observations from a re-analysis of the deposited data

Results flagged for a closer look

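In 7 of 18 groups of 4 samples (6 RNAs in 3 preparations), 1 sample stood farther from the others than a test for single outlying values (Dixon) allows, a result that chance gives in about 1 group in 20. Intact sample 1 was low for Meg3 (100.7 FPKM), Miat (52.83 FPKM) and Snhg11 (113.3 FPKM). MACS-sorted sample 4 was high for Meg3 (274.5 FPKM), Miat (68.49 FPKM), Snhg11 (274.8 FPKM) and Rian (162 FPKM). All 7 values come from these 2 samples, so they are not independent of each other, and their cause was not tested.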

How the results depend on the processing

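With unsorted samples 1 and 2 averaged, added after seeing the data, with another pseudocount, filter or scaling, and with all 12 samples in 1 fit, the number of the 6 RNAs past the limits stayed at 6 for unsorted against intact, 5 for MACS-sorted against unsorted (6 with all 12 samples in the fit, which adds Neat1) and 3 for MACS-sorted against intact. With 1 sample left out these numbers were 6, 5 to 6 and 3 to 4. Without intact sample 1 and MACS-sorted sample 4 together, a choice also made after seeing the data, the last was 5, and 1 snoRNA host gene and 4 other long noncoding RNAs passed. The difference of Rian between MACS-sorted and intact samples ran from -0.011, a reversal, without MACS-sorted sample 4 to 0.34 without MACS-sorted sample 2. Quantile normalization moved the median of all genes tested to 0.104 for MACS-sorted against unsorted and 0.128 for MACS-sorted against intact, from -0.041 and -0.038, and the split of passing genes in the latter from 922 higher and 1313 lower to 1248 and 1183.

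The small counts of the lists moved more, and the cause was not tested. For unsorted against intact, snoRNA host genes past the limits numbered 1 with no filter and 1 with unsorted samples 1 and 2 averaged, against 2, and 1 to 3 with a sample left out. Other RefSeq long noncoding RNAs numbered 7 with all 12 samples in the fit and 9 with unsorted samples averaged, against 14, and 7 to 11 with a sample left out. Paraspeckle proteins numbered 2 with median-ratio size factors, quantile normalization or red blood cell genes removed, against 1, and speckle and SR proteins 2 with quantile normalization, against 1, and both 0 to 3 with a sample left out. All passing genes numbered 579 to 885 with a sample left out, against 873. For MACS-sorted against unsorted, RefSeq long noncoding RNAs numbered 11 with a filter at 5 FPKM, against 18. Paraspeckle proteins numbered 2 with median-ratio size factors or quantile normalization and 1 to 2 with a sample left out, and speckle and SR proteins 4 to 7. For MACS-sorted against intact, RefSeq long noncoding RNAs numbered 5 with a filter at 5 FPKM, against 12, paraspeckle proteins 1 with all 12 samples, against 0, and snoRNA host genes 2 with quantile normalization, against 0, and 0 to 1 with a sample left out. Speckle and SR proteins there numbered 0 to 3.

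Same-numbered samples did not deviate together (correlations of -0.157 to 0.071), and whether they shared a day or batch was not tested. With the replicate number as a block, 6, 5 and 3 of the 6 RNAs passed, and 899, 2507 and 2229 of all genes tested against 873, 2486 and 2235. Counting error was estimated for Malat1 and Neat1 only, and was at most 6.99%. The 4 samples a group and the 2 that stand apart limit the precision.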
